A study of Mus musculus with 30 samples.

Results

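The secreted and membrane-bound enzymes that cut the extracellular matrix of adipose tissue, and the proteins that restrain them, were followed at the mRNA level in mouse white fat. The set holds the matrix metalloproteinases (Mmp genes), the Adamts proteases, the Adamts-like proteins and the tissue inhibitors of metalloproteinases (Timp genes). Members were chosen by symbol among the protein-coding genes of the deposited count table, and 49 of its 35120 genes met that rule. A further 2 annotated genes with matching symbols, Mmp1a and Mmp1b, were not analysed here.

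The series asked what loss of β-catenin, encoded by Ctnnb1, does to adipose tissue. Ctnnb1AdKO mice, labelled Ctnnb1KO, were set against Ctnnb1fl/fl mice, which carry the floxed allele without the deletion and were matched for sex and age. The age, the Cre driver, the exons removed and whether each library is a separate mouse were not given in the sources used here, so p-values measure the spread between libraries, which may be partly technical. The groups were adipocytes of females labelled knockout (6 libraries) and of Ctnnb1fl/fl females (6), adipocytes of males labelled knockout (5) and of Ctnnb1fl/fl males (6), and stromal-vascular cells (SVC) of males labelled knockout (4) and of Ctnnb1fl/fl males (3). Below, Ctnnb1fl/fl libraries are called control libraries. Epididymal and posterior subcutaneous depots are named for every library, females included, so sex and depot cannot be told apart. Minced tissue was digested with collagenase type I, itself a matrix-degrading enzyme preparation, before buoyant adipocytes were parted from the pelleted SVC, and strand-specific mRNA libraries were sequenced.

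The libraries held between 20484836 and 22209603 counts. Ctnnb1 averaged 367 ± 29.9 CPM (the count scaled to library size) in female adipocytes labelled knockout and 341 ± 22.1 CPM in female control adipocytes (SD, n = 6 each). It averaged 349 ± 30.6 CPM (n = 5) against 357 ± 10.4 CPM (n = 6) in male adipocytes, and 419.8 ± 143 CPM (n = 4) against 385 ± 15.4 CPM (n = 3) in SVC, in each case labelled knockout against control. None of these contrasts passed edgeR's quasi-likelihood test, with adjusted p of 0.670 in females, 0.919 in males and 0.979 in SVC. Since the exons removed are not given, the level of Ctnnb1 mRNA does not check the genotype labels, and libraries are named by them. The summed level of 10 adipocyte markers was 48126 to 82746 CPM in adipocyte libraries and 781 to 2105 CPM in SVC libraries. Of the SVC control libraries, replicate 1 held 1870.5 CPM of 6 epididymal epithelial markers, against 31.7 and 64.5 CPM in the other two.

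Mmps are zinc proteases made as inactive precursors. Gelatinases cut denatured collagen, collagenases open the fibrillar triple helix, and stromelysins, matrilysin and the macrophage elastase cut proteoglycans, elastin and basement membrane. Membrane-type Mmps act at the cell surface, where Mmp14 together with Timp2 turns the precursor of Mmp2 into active enzyme. Adamts proteases split versican and aggrecan or trim procollagens, and Adamts-like proteins resemble them without a protease domain. The Timps occupy the active site of most Mmps. Fat cells enlarge inside a collagen-rich pericellular matrix, and this turnover is known to accompany adipose growth.

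Of the 49 genes, 11 lie on chromosome 9, among them Mmp3, Mmp7, Mmp8, Mmp10, Mmp12, Mmp13, Mmp20 and Mmp27, and Timp1 lies on the X chromosome. Promoter windows are shown for 4 neighbours on chromosome 9 that were lower in adipocytes than in SVC, and for Timp4 and Mmp28, the 2 genes with the largest difference in the other direction. They come from RefSeq on GRCm38.p6, run 5′ to 3′ on the gene's strand from 130 bases before the listed start to 12 bases after it, and are in lower case with motif matches in capitals. The deposited counts were made on mm39, so these coordinates belong to the sequence table only. The Mmp13 window is chr9:7272384-7272525 (+), Mmp12 is chr9:7347244-7347385 (+), Mmp3 is chr9:7445692-7445833 (+), Mmp7 is chr9:7691960-7692101 (+), Timp4 is chr6:115252194-115252335 (-) and Mmp28 is chr11:83463029-83463170 (-).
Mmp13: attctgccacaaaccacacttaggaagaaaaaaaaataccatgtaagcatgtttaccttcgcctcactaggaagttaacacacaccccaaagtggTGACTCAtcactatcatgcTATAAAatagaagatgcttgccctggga
Mmp12: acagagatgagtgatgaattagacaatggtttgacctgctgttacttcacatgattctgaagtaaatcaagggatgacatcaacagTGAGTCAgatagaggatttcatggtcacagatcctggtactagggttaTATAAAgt
Mmp3: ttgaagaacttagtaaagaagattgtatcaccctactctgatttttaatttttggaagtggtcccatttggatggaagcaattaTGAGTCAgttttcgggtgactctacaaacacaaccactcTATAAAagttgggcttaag
Mmp7: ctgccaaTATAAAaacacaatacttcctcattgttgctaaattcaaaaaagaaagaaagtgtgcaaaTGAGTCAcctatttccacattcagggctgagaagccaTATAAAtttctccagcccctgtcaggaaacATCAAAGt
Timp4: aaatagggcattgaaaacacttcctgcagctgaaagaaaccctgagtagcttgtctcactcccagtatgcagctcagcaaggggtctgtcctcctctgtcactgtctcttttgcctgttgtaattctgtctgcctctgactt
Mmp28: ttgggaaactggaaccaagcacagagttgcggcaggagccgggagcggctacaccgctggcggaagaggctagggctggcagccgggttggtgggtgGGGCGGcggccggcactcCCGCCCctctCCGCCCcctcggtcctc

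Motifs were searched on both strands in windows of 300 bases, from 250 before each start to 50 after it. The AP-1 letters TGAGTCA were found in 5 of the 37 promoters listed for 34 members, those of Mmp3, Mmp7, Mmp10, Mmp12 and Mmp13, and in 5.20% of all 32851 promoters in the table. Within the printed windows the AP-1 match begins at base -35 in Mmp13, -44 in Mmp12, -46 in Mmp3 and -63 in Mmp7. The TCF/LEF letters CTTTGAT, a motif of the factors that β-catenin binds, were found at 1 site, which lies in both overlapping promoters listed for Mmp7, and in no other member's, against 3.73% of all promoters. In the printed Mmp7 window it starts at base 5 after the start and reads ATCAAAG on the gene's strand. The letters TATAAA were present in promoters of 10 members and in 13.6% of all promoters, and the GC-box letters GGGCGG were present in 22 members and in 35.7% of all. The Timp4 window held none of these letters, and the Mmp28 window held 3 GC boxes. A match is a run of letters and says nothing of whether a factor binds there.

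Adipocytes and SVC differed in which of these genes they carried. Members detected with at least 1 count numbered 38 to 44 in an adipocyte library and 45 to 47 in an SVC library. Together they took 0.189 ± 0.0385% of counts in female adipocytes labelled knockout, 0.217 ± 0.00807% in female control adipocytes, 0.289 ± 0.0301% in male adipocytes labelled knockout and 0.235 ± 0.0232% in male control adipocytes. In SVC they took 0.696 ± 0.181% of counts in libraries labelled knockout and 0.790 ± 0.154% in control libraries. The Timps supplied 27.9 ± 2.89% of these counts in male control adipocytes and 47.9 ± 3.12% in control SVC, while the Adamts proteases supplied 56.4 ± 2.84% in male control adipocytes and 31.1 ± 3.28% in control SVC.

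Per kilobase of exon, Adamts1, a versican-cutting protease, had the highest level of any member in all 4 adipocyte groups. Its level was 181 ± 73.6 CPM per kb in female adipocytes labelled knockout and 207 ± 33.8 CPM per kb in female control adipocytes. In male adipocytes it was 251 ± 41.7 CPM per kb in libraries labelled knockout and 193 ± 26.7 CPM per kb in control libraries. Timp4 and Mmp19 followed it in all 4 adipocyte groups. Timp4, the inhibitor known for its abundance in fat and heart, had 92.5 ± 11.3 CPM per kb in male adipocytes labelled knockout and 88.3 ± 15.5 CPM per kb in male control adipocytes, ahead of Mmp19 at 68.6 ± 13.7 and 56.8 ± 11.4 CPM per kb. In females Timp4 and Mmp19 stood within their spread of each other, at 26.6 ± 6.15 and 36.5 ± 8.88 CPM per kb in libraries labelled knockout, and at 44.6 ± 22.5 and 36.6 ± 2.69 CPM per kb in control libraries. Mmp19 is a secreted metalloproteinase that cuts basement membrane proteins.

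In SVC the highest level per kilobase belonged to Timp2, at 433 ± 84.2 CPM per kb in libraries labelled knockout and 523 ± 70.1 CPM per kb in control libraries. Adamts1 came next, at 142 ± 74.8 and 149 ± 35.4 CPM per kb. Mmp2, gelatinase A, followed at 96.9 ± 23.6 and 112 ± 20.9 CPM per kb, and Timp3, the inhibitor that binds matrix, at 92.4 ± 48.6 and 91.9 ± 36.7 CPM per kb, so that Adamts1, Mmp2 and Timp3 overlapped within their spread. In 5 of the 10 role groups 1 member led in all 6 groups of libraries, and besides Adamts1 and Mmp19 these were Adamts2, Adamtsl4 and Mmp13. Adamts2 led the procollagen N-proteinases in every group, at 10.4 ± 0.650 CPM per kb in male control adipocytes and 26.8 ± 2.25 CPM per kb in control SVC. Adamtsl4, an adapter of fibrillin microfibrils, led the Adamts-like proteins in every group. Mmp13 led the collagenases in every group but at no more than 3.36 ± 2.36 CPM per kb, in control SVC.

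**Figure D1:**
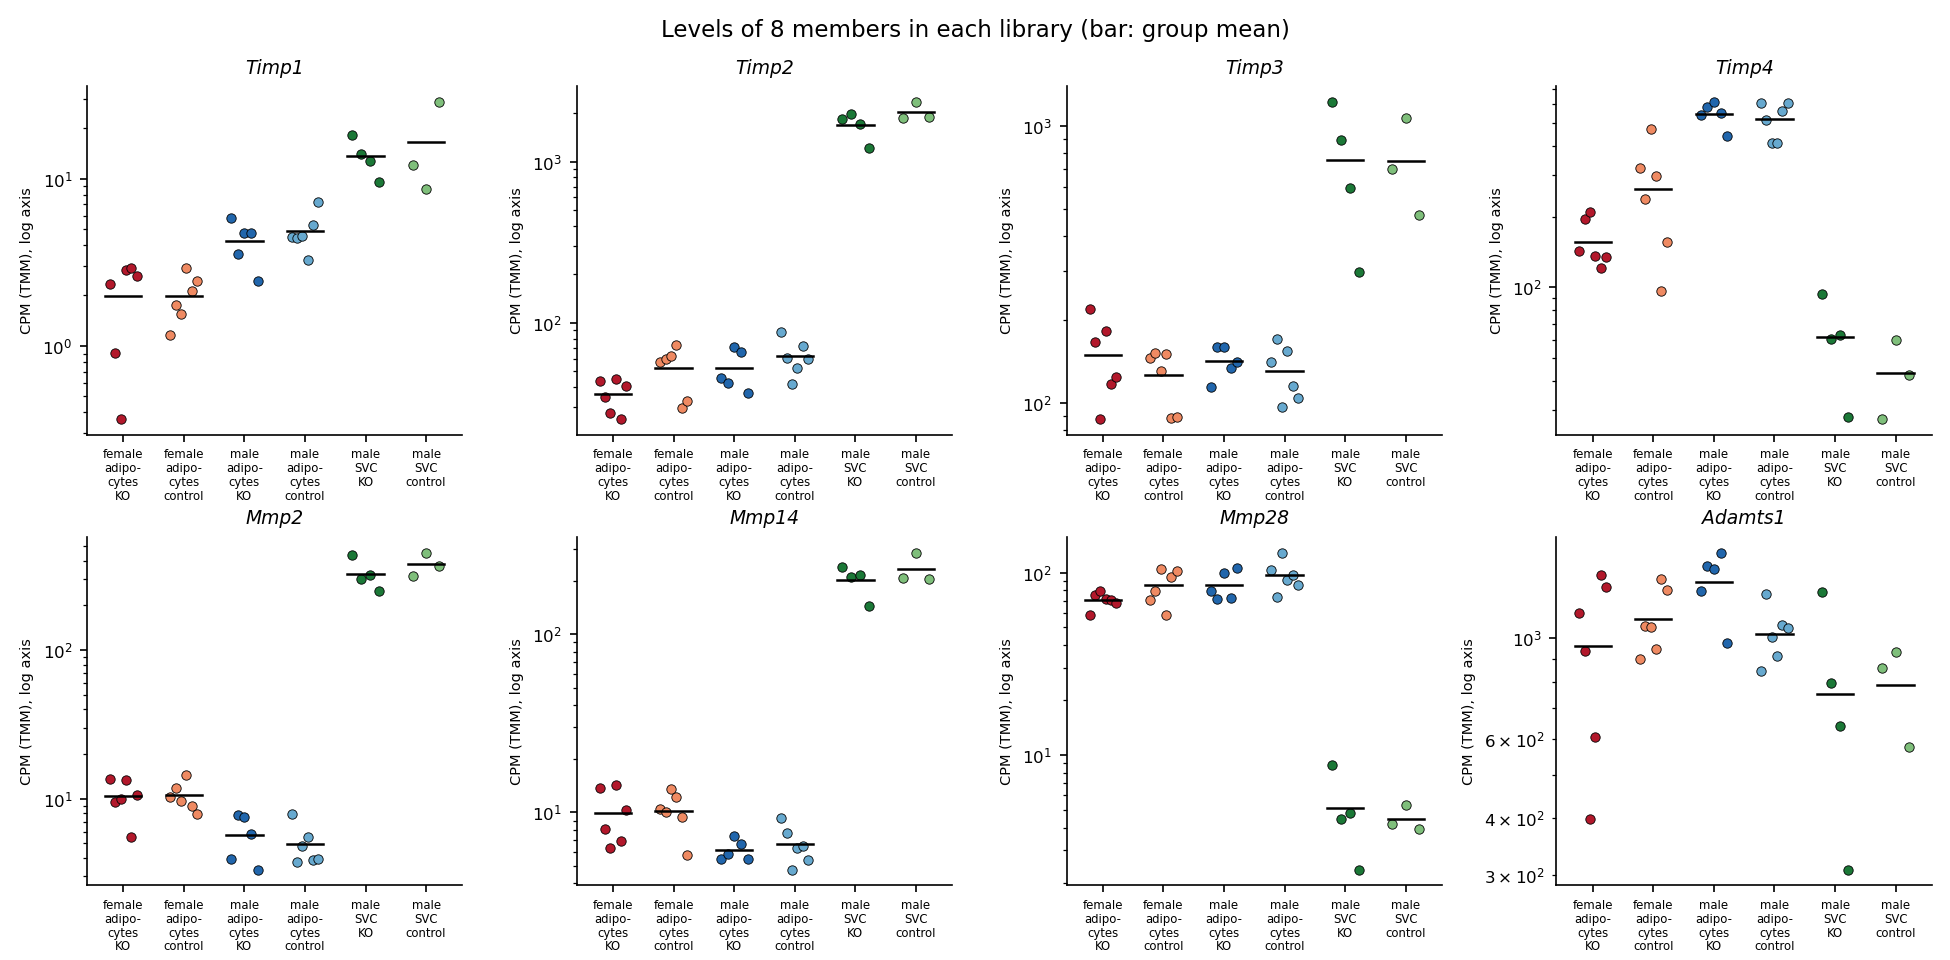
Level of Timp1 to Timp4, Mmp2, Mmp14, Mmp28 and Adamts1 in each of the 30 libraries, in CPM of the TMM-scaled library size on a log axis, with libraries labelled knockout (KO) left of their controls and a bar at each group mean. Timp4 and Mmp28 stand high in the adipocyte groups, whereas Timp2, Mmp2 and Mmp14 stand high in the SVC groups.

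Between the fractions of control males, the inhibitors went both ways. Timp4 and Mmp28 were higher in adipocytes, whereas Timp1, Timp2 and Timp3 were lower there than in SVC. Of the 32 proteases tested, Timps and Adamts-like genes aside, 26 were called lower, Mmp28 and Mmp15 were called higher, and Adamts1, Adamts9, Adamts17 and Mmp19 were not called. A gene is called higher or lower when edgeR's quasi-likelihood test gives a Benjamini-Hochberg adjusted p below 0.05 over all genes tested. By this rule 35 of 41 members tested were called, against 77.1% of all 17251 genes, so the share of members called lies near that of the whole table. The direction was less even, with 3 members called higher against 32.8% of all genes, and 32 called lower against 44.2%. Some members entered the test only through SVC, where they are high, so they could hardly be called higher. Among them were Mmp7 and Adamts16, without a count in male adipocytes. Mmp3, Mmp16, Mmp25 and Adamts19 were others, with 4, 2, 15 and 11 counts in sum over the control adipocyte libraries. Mmp17, Adamts3, Adamts8 and Adamts17 also belonged here, because too few male adipocyte libraries reached the minimum count of 10 for them. Such members enter the counts and the median given here, so the direction is partly set by the filter. The groups did not overlap in 36 of 41 members, against 73.3% of all genes. The median log2 difference, adipocytes minus SVC, was -2.52 over the 41 members and -0.29 over all genes. In such bulk libraries, fewer cells of a type and less RNA per cell cannot be told apart.

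Among the inhibitors, Timp4 was at 411 CPM at the lowest, 540.3 CPM at the median and 610.4 CPM at the highest in male control adipocytes, against 27.6, 59.8 and 42.3 CPM in the 3 control SVC libraries. The groups did not overlap, and the level in adipocytes was 12.1-fold higher (log2 3.60, SE 0.34, edgeR adjusted p = 4.91e-08). Timp2 ran from 42.0 CPM through a median of 60.0 CPM to 87.3 CPM in male control adipocytes, against 1856, 2352 and 1906 CPM in control SVC. It was 32.6-fold lower in adipocytes, with no overlap (edgeR adjusted p = 1.94e-11). Timp3 averaged 129.9 ± 29.2 CPM in adipocytes (n = 6) and 749 ± 299 CPM in SVC (n = 3), a log2 difference of -2.52 (edgeR adjusted p = 1.44e-06). Timp1, an inducible secreted inhibitor, averaged 4.86 ± 1.32 CPM in adipocytes and 16.5 ± 10.7 CPM in SVC, a log2 difference of -1.75 (edgeR adjusted p = 0.000135).

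The enzymes that Timp2 is known to act with followed its direction. Mmp2 had 3.73, 4.36 and 7.92 CPM as lowest, median and highest values in male control adipocytes, against 314, 453 and 367 CPM in control SVC, and was 75.6-fold lower in adipocytes (edgeR adjusted p = 1.31e-11). Mmp14 had 4.77, 6.4 and 9.34 CPM as lowest, median and highest values, against 206, 288 and 203 CPM, and was 34.6-fold lower (edgeR adjusted p = 4.61e-12). For both genes the lowest SVC library was far above the highest adipocyte library. Mmp9, gelatinase B, known from myeloid cells, averaged 12.9 ± 4.03 CPM in adipocytes and 76.3 ± 35.6 CPM in SVC (log2 -2.55, edgeR adjusted p = 2.69e-07). Mmp12, the macrophage elastase, averaged 11.6 ± 5.08 CPM in adipocytes and 92.9 ± 65.0 CPM in SVC (log2 -2.99, edgeR adjusted p = 1.89e-05).

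Mmp28, or epilysin, was the metalloproteinase that stood out on the adipocyte side. It ran from 73.7 CPM through a median of 94.0 CPM to 129 CPM in male control adipocytes, against 4.17, 5.30 and 3.93 CPM in control SVC. It was 21.7-fold higher in adipocytes (log2 4.44, SE 0.35, edgeR adjusted p = 4.35e-09), and the groups did not overlap. Mmp15, a membrane-type enzyme, averaged 13.5 ± 2.06 CPM in adipocytes and 4.69 ± 2.26 CPM in SVC (log2 1.53, edgeR adjusted p = 0.0284). Its call was lost with library-total scaling, where the log2 difference was 0.92 (edgeR adjusted p = 0.158), and without SVC control replicate 2 or 3 (edgeR adjusted p = 0.0830 and 0.111). The other membrane-type enzymes that were tested were called lower in adipocytes, at a log2 difference of -3.43 for Mmp17. Mmp25 and Mmp16 held 15 and 2 counts in sum over the 6 adipocyte libraries, so they were tested only through SVC, and their fitted differences are not given. The ratio of summed counts, SVC over adipocytes at equal scaled depth, was 60.6 for Mmp25 (95% exact interval 36.5 to 109) and 46.9 for Mmp16 (95% exact interval 12.5 to 396), intervals that cover counting error only.

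The collagenase and both stromelysins tested were called lower in adipocytes, at log2 differences of -4.09 for Mmp13 and -3.44 for Mmp11, stromelysin-3. Mmp3, stromelysin-1, held 4 counts in sum over the 6 adipocyte libraries, and its ratio of summed counts, SVC over adipocytes, was 70.0 (95% exact interval 26.9 to 259.5, counting error only). Mmp7, matrilysin, had 24.8, 8.64 and 2.84 CPM in the 3 control SVC libraries and no count in any of the 23 adipocyte libraries. Set against a floor of 3 counts per library, 0.148 CPM, it was at least 81.5-fold lower in male control adipocytes, and at least 38.7-fold lower without SVC control replicate 1, which held most of it and which also held the 1870.5 CPM of epididymal epithelial markers. The summed level of 8 mammary and skin epithelial markers was 288, 56.6 and 58.2 CPM in the same SVC libraries. In SVC labelled knockout, replicates 1 to 4 held 27.9, 0.157, 42.9 and 5.30 CPM of Mmp7. Epididymal epithelial markers summed to 31.3, 10.4, 0.0774 and 24.0 CPM there, and mammary and skin epithelial markers to 184, 9.55, 323 and 40.2 CPM. The part of either list in the Mmp7 level was not tested. Mmp23 averaged 2.11 ± 1.01 CPM in adipocytes and 60.8 ± 10.2 CPM in SVC (log2 -4.84, edgeR adjusted p = 6.72e-10). Mmp19 could not be called, at 201 ± 40.4 CPM in adipocytes and 178 ± 108 CPM in SVC (edgeR adjusted p = 0.571).

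The Adamts genes were divided. All 3 procollagen N-proteinases were called lower in adipocytes, led by Adamts14 at a log2 difference of -4.92, with Adamts3 at -2.52 and Adamts2 at -1.36. Adamts3, and Adamts8 among the proteoglycanases below, were tested only through SVC, so they could hardly be called higher. Of 6 proteoglycanases tested, 4 were called lower. Adamts4, an aggrecanase, averaged 108 ± 52.9 CPM in adipocytes and 381 ± 44.1 CPM in SVC (log2 -1.81, edgeR adjusted p = 0.000981), Adamts15 and Adamts8 had log2 differences of -3.33 and -2.91, and Adamts5, the other main aggrecanase, had one of -0.58. Adamts1 averaged 1023 ± 142 CPM in adipocytes and 788 ± 188 CPM in SVC and was not called (edgeR adjusted p = 0.246). Adamts16 was absent from the counts of all male adipocyte libraries and had 8.80, 6.04 and 10.5 CPM in control SVC, so that it was at least 57.0-fold lower in adipocytes. In the remaining Adamts group 6 of 7 genes tested were called lower, and among Adamts-like genes 3 of 5 were, with Adamtsl3 at -5.47, Adamtsl1 at -5.29 and Adamtsl5 at -2.39 on the log2 scale.

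Libraries labelled knockout gave a like division between the fractions. Of 41 members tested, 33 were called, against 76.5% of all genes. Called higher were 3, against 31.8% of all genes, and lower 30, against 44.7%. Members that entered the test only through SVC are again in these counts. Higher in adipocytes were Mmp28, at 85.8 ± 16.0 CPM in adipocytes and 5.10 ± 2.68 CPM in SVC, Timp4, at 545 ± 66.8 and 61.3 ± 26.9 CPM, and Adamts1, at 1331 ± 221 and 751 ± 396 CPM (n = 5 and n = 4). Lower in adipocytes were, among others, Timp2, at 52.4 ± 15.2 CPM in adipocytes and 1688 ± 328 CPM in SVC, and Mmp2, at 5.68 ± 2.04 and 327 ± 79.5 CPM. Numbers 3, 4 and 6 in the column names pair an adipocyte library with an SVC library. The other libraries have no partner and add nothing to a blocked contrast, so the block rests on fewer libraries. With that number as a replicate block Adamts1 lost its call (log2 1.00, edgeR adjusted p = 0.164), as did Adamts4 (log2 -1.24, edgeR adjusted p = 0.136). Adamts1 also lost it with library-total scaling (log2 0.41, edgeR adjusted p = 0.185) and with only the groups compared (log2 0.79, edgeR adjusted p = 0.0534). Under the block 28 members were called, and the number of calls over all genes was 8370, against 13199 without it.

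Markers of stromal cell types differed with the fraction. All 11 preadipocyte and fibroblast markers were called lower in control adipocytes, at 127 to 219 CPM in sum, against 2577 to 2856 CPM in control SVC. Of 14 macrophage and monocyte markers, 13 were called lower, at 598 to 1127 CPM against 3777 to 8829 CPM. The part of these cells in the SVC levels of the proteases was not tested.

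**Figure D2:**
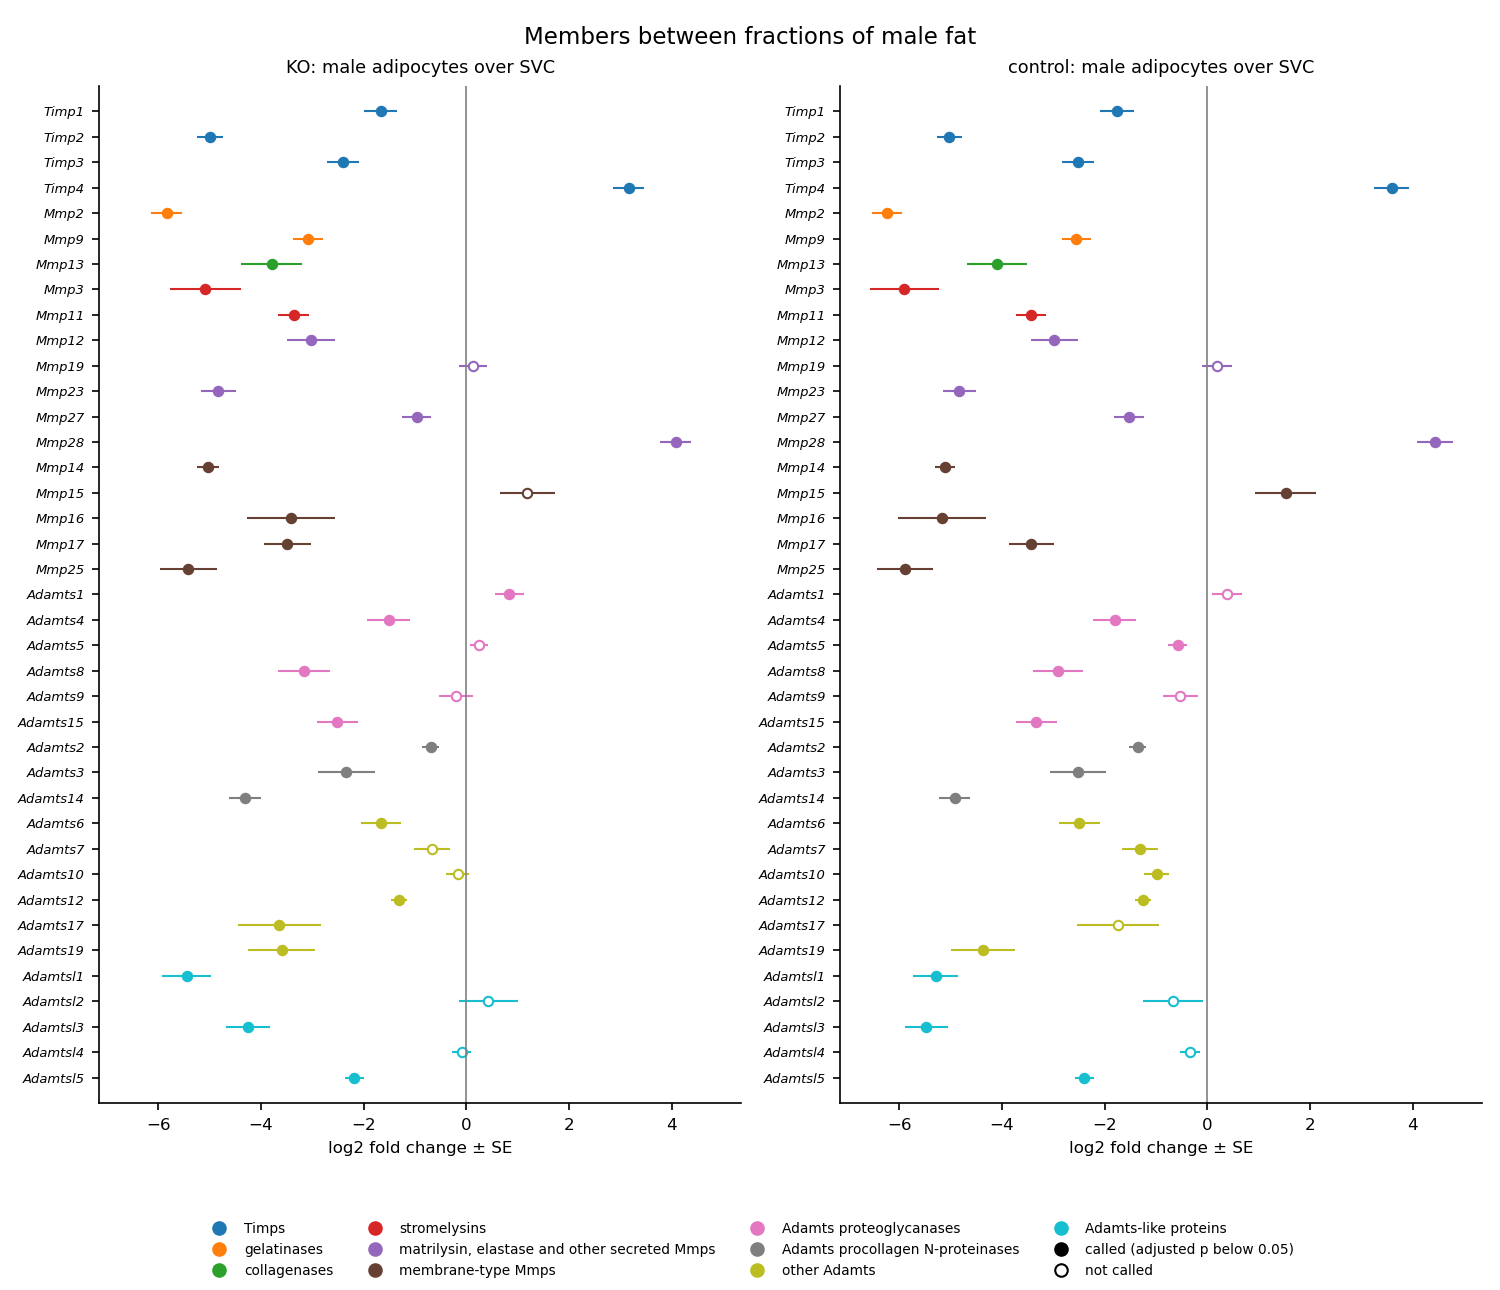
Difference in level between adipocytes and SVC in males on the log2 scale, for 39 members, with libraries labelled knockout in the left panel, control libraries in the right panel and bars of 1 standard error. Filled points are called members. Mmp7 and Adamts16, which have no count in male adipocytes, are left out, and the fitted values of Mmp3, Mmp16 and Mmp25 rest on few adipocyte counts. Mmp28 and Timp4 lie at the right, and Mmp2, Mmp14 and Timp2 lie at the left, in both genotypes.

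Control adipocytes of females and males differed in 15 of 35 members tested, against 43.8% of all 14227 genes, so the share of members lies near that of the table. Called higher in females were 10 members, against 23.7% of all genes, and called lower were 5, against 20.1%. Mmp3, Mmp17, Adamts19 and Adamts20 lay below the minimum count of 10 in every male adipocyte library. They entered the test only through female libraries and could hardly be called lower in females, so the direction is partly set by the filter. Mmp3 was higher in females, and Mmp12, Timp1 and Adamtsl4 were lower, with no overlap between the groups. In all, 8 of 35 members had no overlap, against 21.2% of all genes. Since sex and depot cannot be told apart, the contrast is between these female and male preparations.

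Mmp3 had 0.619, 2.78 and 5.66 CPM as lowest, median and highest values in female control adipocytes, against 0, 0.0246 and 0.0944 CPM in male control adipocytes. The 6 male libraries held 4 counts in sum, so Mmp3 was tested only through the female libraries, and its fitted difference is not given. The ratio of summed counts, female over male at equal scaled depth, was 90.8 (95% exact interval 35.2 to 335, counting error only). Mmp12 ran from 0.103 CPM through a median of 0.672 CPM to 2.44 CPM in female control adipocytes, against 5.91, 10.9 and 21.0 CPM in male control adipocytes. It was 12.0-fold lower in females (log2 -3.58, SE 0.54, edgeR adjusted p = 2.01e-05). Of 14 macrophage and monocyte markers, 10 were also called lower in female control adipocytes, at 266 to 561 CPM in sum, against 598 to 1127 CPM in male control adipocytes. The part of those cells in the Mmp12 difference was not tested.

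Among the inhibitors, Timp1 averaged 1.99 ± 0.633 CPM in female and 4.86 ± 1.32 CPM in male control adipocytes (log2 -1.27, edgeR adjusted p = 0.00328, n = 6 each). Timp4 averaged 263 ± 133 CPM in females and 521 ± 91.5 CPM in males (log2 -0.97, edgeR adjusted p = 0.00291), with overlap, because its female values spread from 96.5 to 471 CPM. Timp2 and Timp3 were not called, at log2 differences of -0.23 and -0.03 (edgeR adjusted p = 0.405 and 0.904), and the sign for Timp3 turned when male control replicate 2 was left out. Mmp2 was higher in females, at 10.5 ± 2.36 CPM against 4.97 ± 1.61 CPM in males (log2 1.10, edgeR adjusted p = 0.000656), while Mmp9 was not called (edgeR adjusted p = 0.654). Mmp14 averaged 10.2 ± 2.67 CPM in females and 6.67 ± 1.65 CPM in males (log2 0.63, edgeR adjusted p = 0.0168), a call lost when any of 4 control libraries was left out, with edgeR adjusted p between 0.0524 and 0.0610.

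Other Mmps showed both directions. Mmp23 averaged 6.13 ± 3.56 CPM in females and 2.11 ± 1.01 CPM in males (log2 1.55, edgeR adjusted p = 0.00519). Mmp19 averaged 129 ± 9.49 CPM in females and 201 ± 40.4 CPM in males (log2 -0.61, edgeR adjusted p = 0.00280). Mmp11 was called at a log2 difference of 0.65 (edgeR adjusted p = 0.0392) but lost its call without any of 8 single libraries and in 3 other settings. Of the Adamts genes, Adamts12, which can cut cartilage oligomeric matrix protein, averaged 47.0 ± 22.5 CPM in females and 26.8 ± 4.05 CPM in males (log2 0.83, edgeR adjusted p = 0.0106), and was not called without female control replicate 6 (log2 0.53, edgeR adjusted p = 0.0581). Adamts19 and Adamts20 were called higher in females at under 1 CPM in both sexes. Adamtsl4 averaged 24.6 ± 1.91 CPM in females and 43.5 ± 5.49 CPM in males (log2 -0.81, edgeR adjusted p = 0.000477), whereas Adamtsl3 was higher in females, at 1.21 ± 0.261 CPM against 0.498 ± 0.256 CPM. No procollagen N-proteinase and no collagenase was called.

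The fibroblast markers stood higher on the female side, with 7 of 11 called higher and a median log2 difference of 1.25. That list summed to 156 to 324 CPM in female and 127 to 219 CPM in male control adipocytes, and its part in the Mmp2, Mmp3 and Mmp14 differences was not tested.

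**Figure D3:**
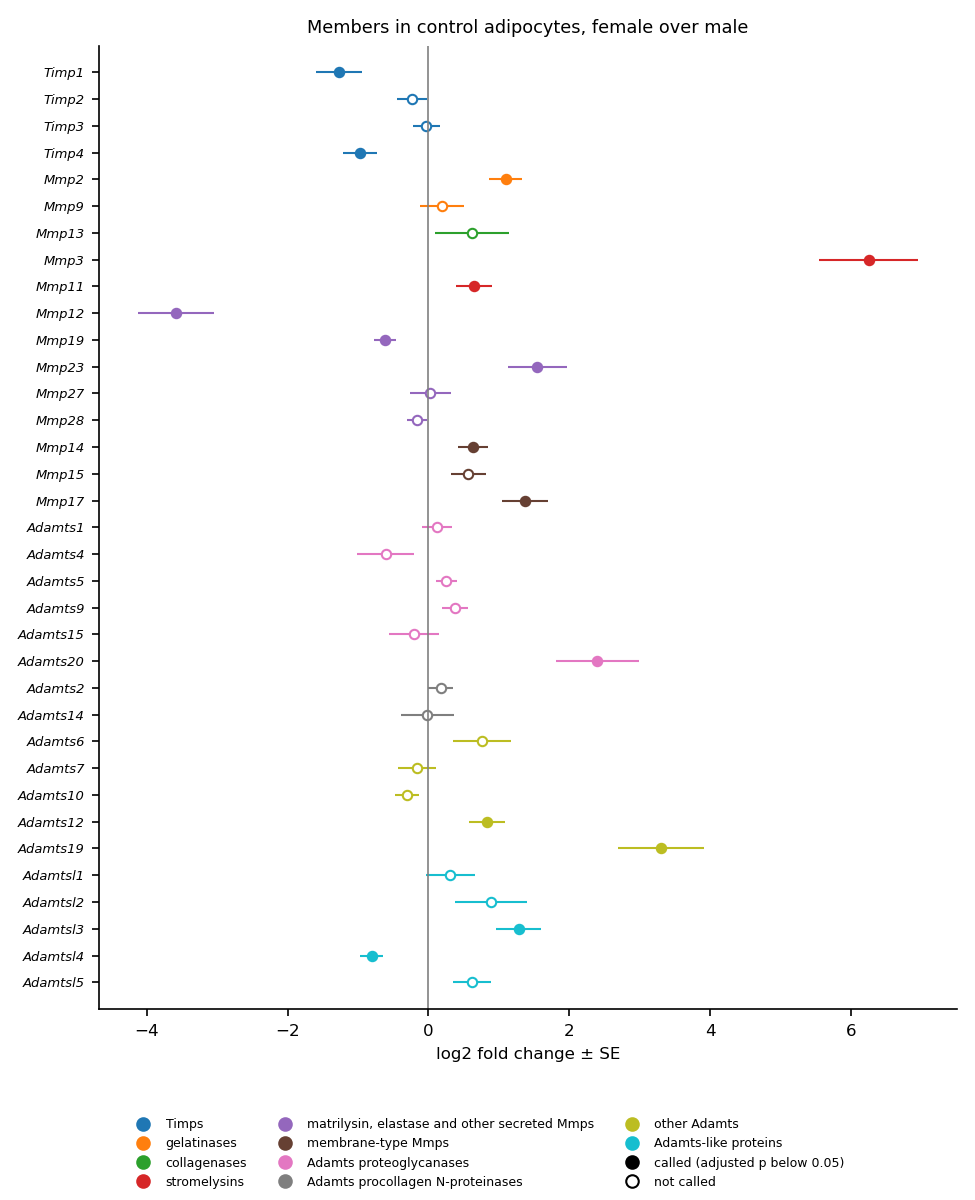
Difference in level between female and male control adipocytes on the log2 scale for the 35 members tested, by role group, with bars of 1 standard error and called members filled. Mmp3, with 4 counts over the 6 male libraries, lies furthest to the right and Mmp12 furthest to the left.

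SVC libraries carry the knockout label of their mice, and which cells lost Ctnnb1 was not given in the sources used here. Libraries with that label were set against control within each sex and fraction. No member passed the test in any of these contrasts, nor in the averaged effect or the differences of effects. In male adipocytes 0 of 35 members were called, against 0.0703% of all genes, and in females 0 of 35, against 0.471%. Averaged over the sexes 0 of 35 were called, against 0.759%, and in SVC 0 of 41, against 0% (0 of 16404 genes). At an unadjusted edgeR p below 0.05 there were 4 of 35 members in male adipocytes, against 1861 of all 14227 genes. Female adipocytes gave 5 of 35, against 1469 of 14227, and the average gave 6 of 35, against 2137 of 14227. In SVC there were 4 of 41, against 429 of 16404. By DESeq2, 1 member was called in females and 1 in the average, in both cases Mmp9, and none was called in male adipocytes or SVC.

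In male adipocytes, Mmp12 had the smallest p of the members. Its level was 41.1, 21.8, 22.5, 65.1 and 26.2 CPM in the 5 libraries labelled knockout, against 5.91 CPM at the lowest, 10.9 CPM at the median and 21.0 CPM at the highest in the 6 control libraries. All 5 libraries labelled knockout lay above every control, by a narrow margin at the closest pair. The log2 difference was 1.61 (SE 0.46, approximate 95% interval 0.71 to 2.51), with an unadjusted p of 0.00190 and an edgeR adjusted p of 0.147. The macrophage and monocyte markers overlapped between these groups, at 596 to 1088 CPM in sum in libraries labelled knockout and 598 to 1127 CPM in controls, and 6 of 14 had a positive log2 difference.

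Adamts5 was the other member without overlap in male adipocytes, where 2 of 35 members and 1.72% of all 14227 genes had none. It had 259, 173, 167, 186 and 159 CPM in libraries labelled knockout, against 123, 133 and 156 CPM as lowest, median and highest values in controls. The log2 difference was 0.49 (SE 0.16, approximate 95% interval 0.18 to 0.80, edgeR adjusted p = 0.192). Replicate 1 of the libraries labelled knockout stood apart from the rest of its group. Adamts10, a microfibril-associated protease, averaged 21.6 ± 5.27 CPM in libraries labelled knockout and 16.2 ± 2.91 CPM in controls (edgeR adjusted p = 0.315), and Adamts1 averaged 1331 ± 221 CPM against 1023 ± 142 CPM (edgeR adjusted p = 0.462). On the negative side, Adamtsl1 averaged 0.732 ± 0.362 CPM against 1.27 ± 0.909 CPM (log2 -0.80, edgeR adjusted p = 0.381), and without male control replicate 1, at 3.03 CPM, the log2 difference was -0.32 (edgeR adjusted p = 0.789). Also negative were Mmp9, at a log2 difference of -0.42, and Adamts12, at -0.30.

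In female adipocytes the smallest p belonged to Mmp9. It ran from 1.2 CPM through a median of 6.63 CPM to 12.1 CPM in libraries labelled knockout, against 10.5, 13.2 and 22.4 CPM in controls, and all 6 libraries labelled knockout lay below the control mean. The groups overlapped at replicate 6 of the knockout label. The log2 difference was -1.18 (SE 0.32, approximate 95% interval -1.81 to -0.54, edgeR adjusted p = 0.116). Leaving out that replicate gave -1.47 with an edgeR adjusted p of 0.0330, and DESeq2 gave -1.19 with an adjusted p of 0.0233. Macrophage and monocyte markers stood lower too, at 90.5 to 316 CPM in sum in libraries labelled knockout and 266 to 561 CPM in controls, with 14 of 14 negative, a median log2 difference of -0.89 and 1 called. Their part in the Mmp9 values was not tested, while the granulocyte markers overlapped, at 1.72 to 8.89 CPM against 1.03 to 4.41 CPM.

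Timp4 in females had 121, 139 and 209 CPM as lowest, median and highest values in libraries labelled knockout, against 96.5, 267 and 471 CPM in controls. The groups overlapped, and control replicate 5 held the lowest value of all. The log2 difference was -0.74 (SE 0.25, approximate 95% interval -1.22 to -0.26, edgeR adjusted p = 0.233), and without that control it was -0.91 (edgeR adjusted p = 0.0434). Timp2 averaged 36.2 ± 8.34 CPM in libraries labelled knockout and 52.5 ± 17.3 CPM in controls (log2 -0.53, edgeR adjusted p = 0.386). Timp1 and Timp3 had log2 differences of 0.01 and 0.25, and the sign for Timp1 turned under upper-quartile and library-total scaling, limma-voom, the replicate block and some left-out libraries. Among members with positive values, Adamts9, a versican-cutting protease of the endothelium and other cells, averaged 61.2 ± 21.8 CPM in libraries labelled knockout and 43.5 ± 9.89 CPM in controls (edgeR adjusted p = 0.334). Adamts15 averaged 3.51 ± 1.5 CPM against 1.87 ± 0.966 CPM (edgeR adjusted p = 0.353). Of 8 pericyte and smooth muscle markers, 6 had positive values too (median log2 difference 0.41, none called), at 259.5 to 632 CPM in sum in libraries labelled knockout and 215 to 549 CPM in controls, and their part in these values was not tested.

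**Figure D4:**
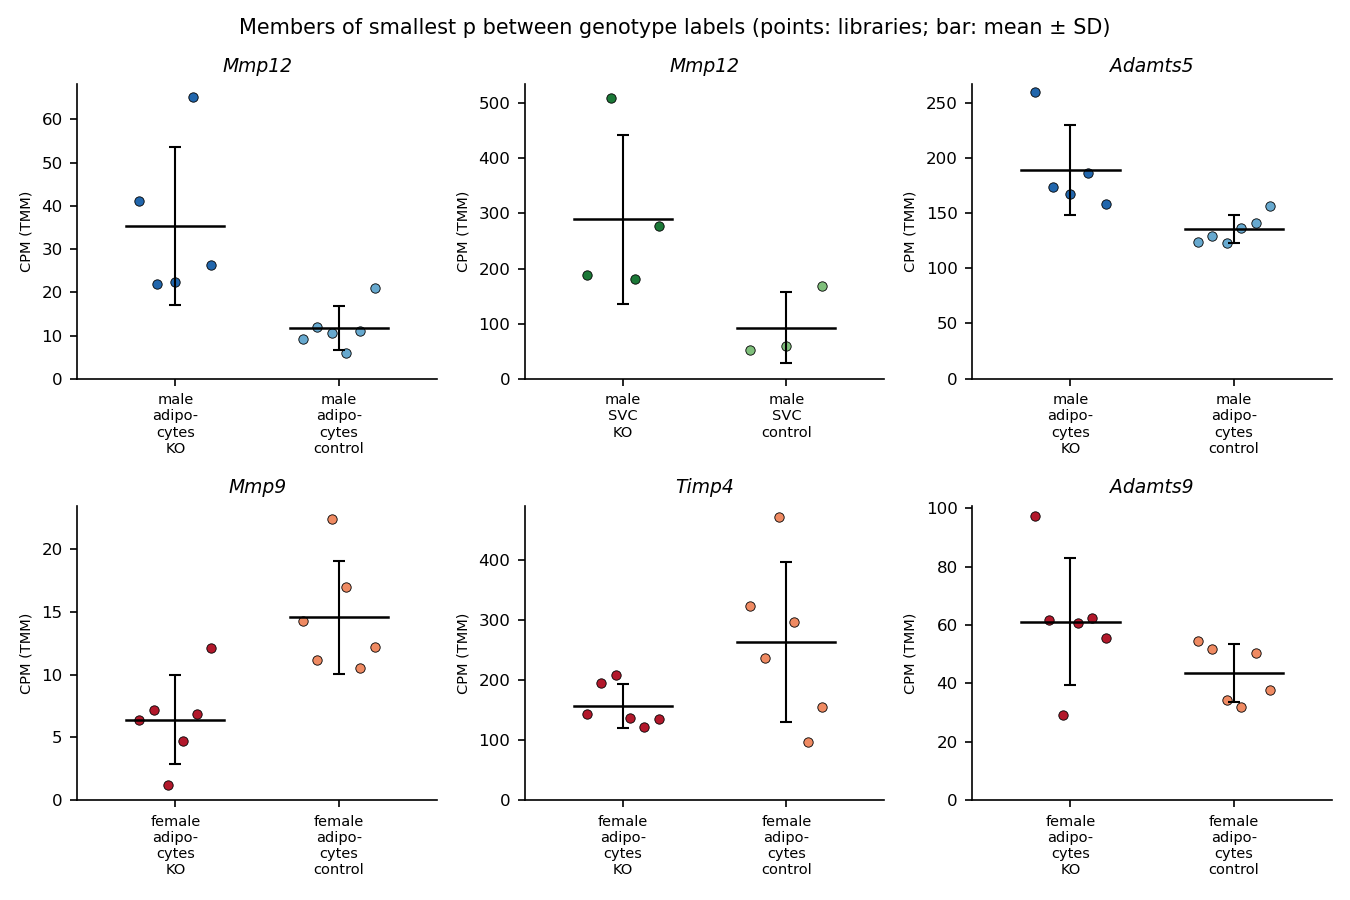
Level in CPM of Mmp12, Adamts5, Mmp9, Timp4 and Adamts9 in the fraction and sex where each was among the members of smallest p, 1 point per library, with libraries labelled knockout (KO) left of controls and bars at the group mean ± SD. Mmp12 in both male fractions and Adamts5 in male adipocytes lie above their controls without overlap, whereas Mmp9 and Timp4 in females lie low with overlap.

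The proteoglycanases had mostly positive values in both sexes, and none passed the test. All 6 tested had a positive log2 difference in male adipocytes, with a median of 0.39, and 5 of 6 did in females, with a median of 0.33, against medians of 0.02 and 0.01 over all genes. Averaged over the sexes, Adamts9 had a log2 difference of 0.44 (SE 0.14, edgeR adjusted p = 0.119) and Adamts15 of 0.67 (edgeR adjusted p = 0.215). Adamts5 was at 0.27 (edgeR adjusted p = 0.248) and Mmp9 at -0.80 (SE 0.23, edgeR adjusted p = 0.106). Over all members, 24 of 35 had a positive value in males and 19 of 35 in females.

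The difference of effects, female minus male, was -1.90 for Mmp12 on the log2 scale (SE 0.80, approximate 95% interval -3.46 to -0.34, unadjusted p = 0.0257, edgeR adjusted p = 0.527). Mmp12 in females lay near the floor, at 0.765 ± 0.879 CPM in libraries labelled knockout and 0.941 ± 0.827 CPM in controls (SD, n = 6 each). For Timp4 the difference of effects was -0.81 (approximate 95% interval -1.5 to -0.12, edgeR adjusted p = 0.530). Its male effect was 0.07 (approximate 95% interval -0.43 to 0.57). Over all members 0 of 35 were called for this difference, against 0.0141% of all genes.

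In SVC, 3 of 41 members had no overlap, against 3.3% of all 16404 genes, and they were Mmp12, Adamts16 and Adamts2. Mmp12 was at 189, 510.1, 181 and 278 CPM in libraries labelled knockout, against 52.2, 58.7 and 168 CPM in controls. Its log2 difference was 1.64 (SE 0.58, approximate 95% interval 0.51 to 2.77, unadjusted p = 0.0260, edgeR adjusted p = 0.968). It is not independent of the adipocyte values, because numbers pair several SVC and adipocyte libraries, which may come from the same mice. The effect in adipocytes minus that in SVC was -0.04 (approximate 95% interval -1.32 to 1.25), an interval wide enough to hold differences of more than 1 on the log2 scale either way. Macrophage markers summed to 4881 to 8978 CPM in SVC labelled knockout and 3777 to 8829 CPM in control SVC, with 12 of 14 positive and a median log2 difference of 0.21. The highest Mmp12 value among the controls was in replicate 3, which also held the highest macrophage sum of the controls. Of the libraries labelled knockout, replicate 2 held the highest Mmp12 and the highest macrophage sum. Replicate 3, with the lowest Mmp12, had the next highest sum, 7460 CPM. Without control replicate 3 the log2 difference was 2.36, but the remaining control sums, 3777 and 4248 CPM, lay below those of every library labelled knockout. The part of these cells in the Mmp12 values was not tested.

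The other members of SVC mostly had negative values. Of 41 tested, 31 had a negative log2 difference, with a median of -0.26, against 0.04 over all genes. Adamts16 had 3.43, 5.46, 3.13 and 4.14 CPM in libraries labelled knockout, against 8.80, 6.04 and 10.5 CPM in controls, a log2 difference of -1.08 without overlap (edgeR adjusted p = 0.968). Adamts2 had 216, 224, 182 and 145 CPM in libraries labelled knockout, against 228, 269 and 254 CPM in controls, also without overlap (log2 -0.42, edgeR adjusted p = 0.968). Adamtsl1 averaged 32.3 ± 12.5 CPM against 50.4 ± 8.72 CPM. Timp2 averaged 1688 ± 328 CPM in libraries labelled knockout and 2038 ± 273 CPM in controls, Mmp2 averaged 327 ± 79.5 against 378 ± 70.3 CPM, and Mmp14 averaged 202 ± 40.1 against 232 ± 47.8 CPM, with every edgeR adjusted p at 0.968. Replicate 4 of the knockout label was the lowest of its group for Adamts2, Adamtsl1, Timp2, Mmp2 and Mmp14. It held 1222 CPM of Timp2, 249 CPM of Mmp2 and 145 CPM of Mmp14. For Adamts16 the lowest was replicate 3. The positive log2 difference of Adamts17, 1.45, rested on replicate 4 of the knockout label at 3.88 CPM, and became -0.37 without it.

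Marker sums in SVC also differed by label, with no marker called. Mesothelial markers summed to 88.7 to 135 CPM in libraries labelled knockout and 214 to 534 CPM in controls, with 10 of 10 negative and a median log2 difference of -2.20, and fibroblast markers to 1545 to 2811 CPM against 2577 to 2856 CPM, with 10 of 11 negative. The same mesothelial markers were all negative in male adipocytes (median log2 -1.44) and female adipocytes (median log2 -1.45). Adipocyte markers summed to 1637 to 2105 CPM in SVC labelled knockout and 781 to 1522 CPM in control SVC, with 10 of 10 positive and a median log2 difference of 1.17. Epididymal epithelial markers summed to 0.0774 to 31.3 CPM in SVC labelled knockout and 31.7 to 1870.5 CPM in control SVC. The part of these cells in the members' values was not tested.

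Setting the fractions against each other, Adamts5 had an effect in adipocytes that exceeded its effect in SVC by 0.83 on the log2 scale (approximate 95% interval 0.34 to 1.32, unadjusted p = 0.00407, edgeR adjusted p = 0.633). In adipocytes labelled knockout, replicate 1 held 259 CPM of Adamts5 (next highest 186 CPM). In SVC labelled knockout, replicate 4 held 118 CPM (next lowest 171 CPM). Both values widen this difference. Adamts2 gave 0.67 and Adamts10 gave 0.82 (edgeR adjusted p = 0.686 and 0.730). No member was called, against 0% of all 17251 genes, with 4 members and 1149 genes at an unadjusted p below 0.05 and 22 genes called by DESeq2.

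**Figure D5:**
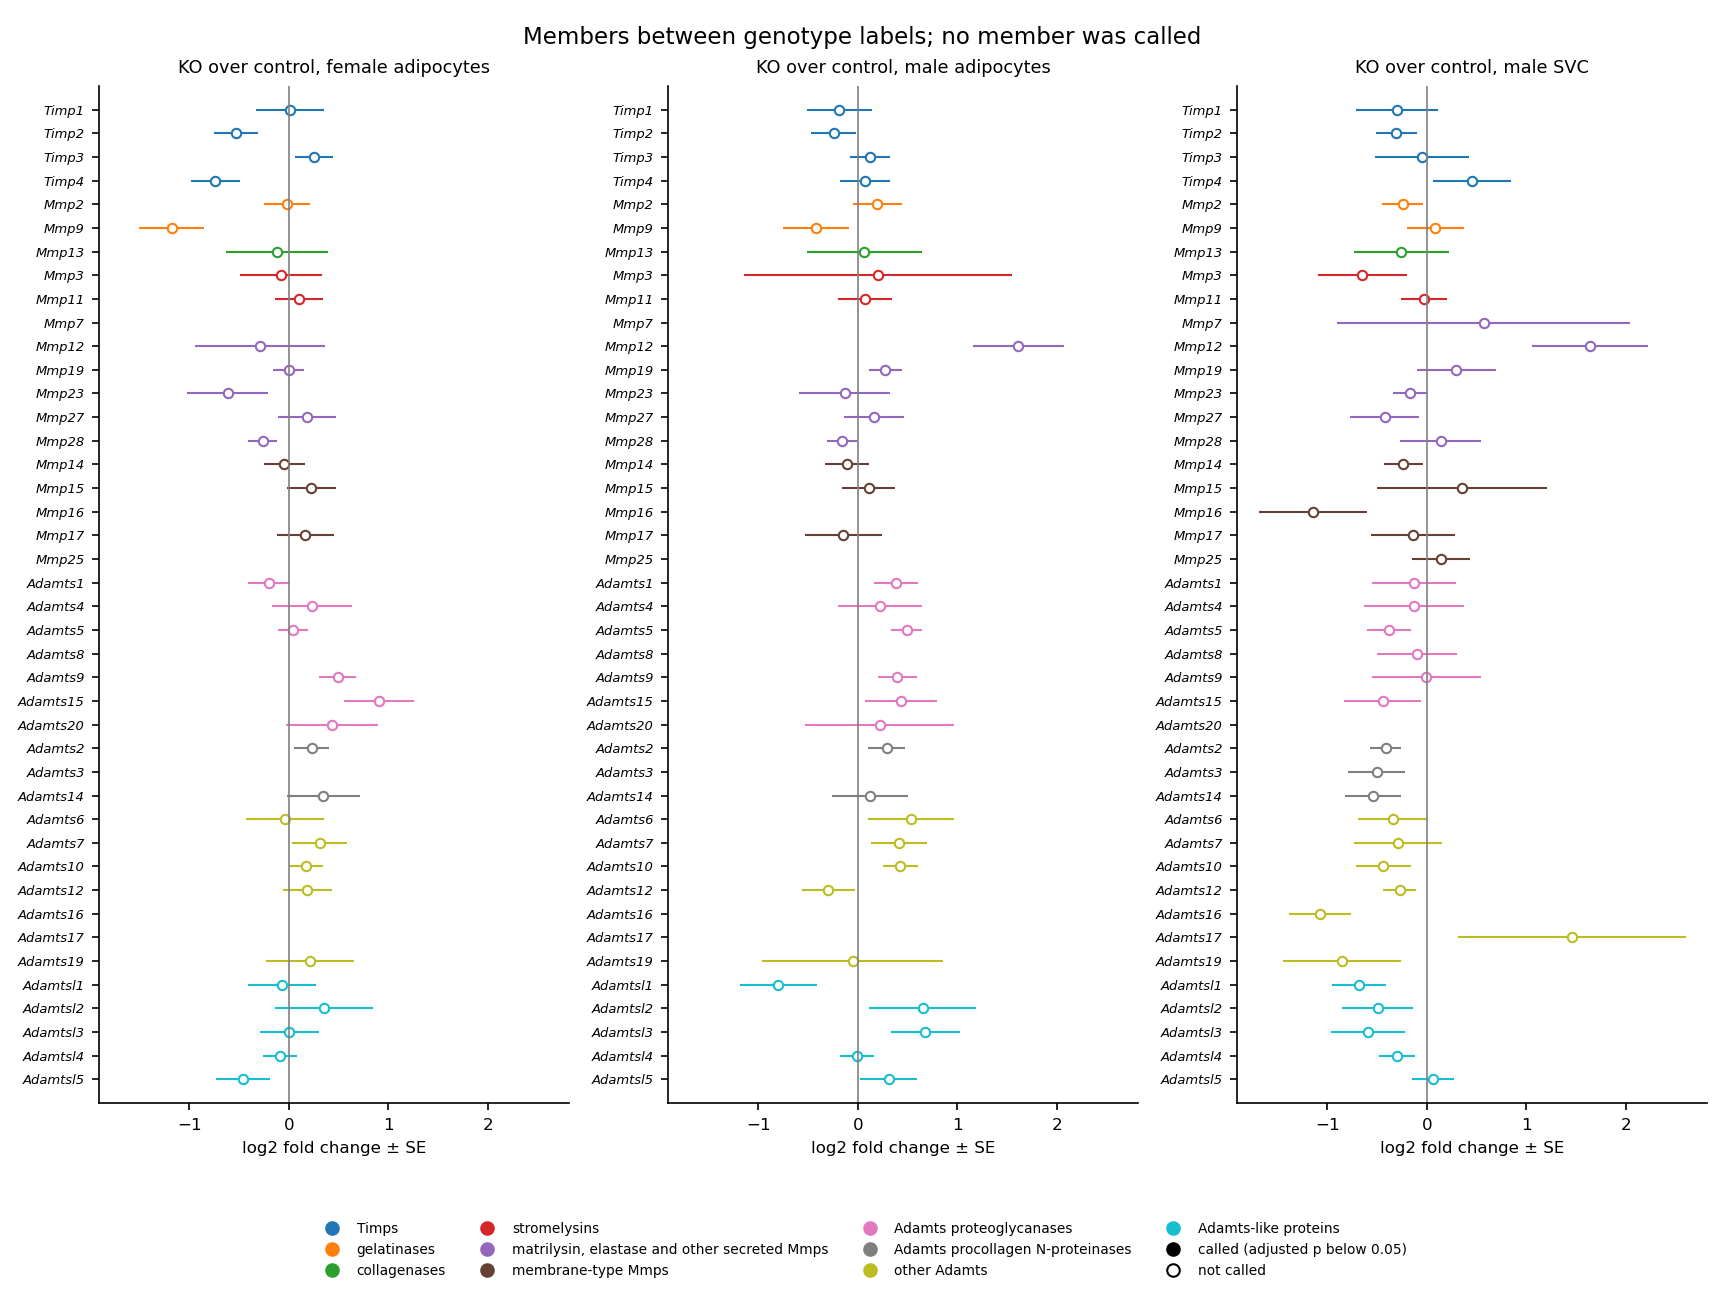
Difference between libraries labelled knockout and control libraries on the log2 scale in female adipocytes, male adipocytes and male SVC, for every member tested in any of them, with bars of 1 standard error and open points, since no member was called. Most members lie near 0, Mmp12 lies to the right in both male fractions, and Mmp9 and Timp4 lie to the left in female adipocytes.

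The substrates and partners of these enzymes were read from lists of collagens, matrix proteoglycans and glycoproteins, plasminogen activation, activators and other inhibitors, and collagen processing. These lists were chosen with earlier results of these data known, so their shares of called genes are no independent comparison with all genes. In female adipocytes, 3 of their 72 genes tested were called between libraries labelled knockout and control, against 0.471% of all genes. Comp, cartilage oligomeric matrix protein, averaged 14.7 ± 15.3 CPM in libraries labelled knockout and 2.42 ± 1.47 CPM in controls (log2 2.61, edgeR adjusted p = 0.0306). Its values were uneven, at 3.75 to 42.6 CPM in libraries labelled knockout and 1.13 to 5.17 CPM in controls, with overlap. The call was lost in 10 of 20 alternatives, namely limma-voom, only the groups compared (edgeR adjusted p = 0.185), the replicate block, no filter, and leaving out control replicate 1, 2, 3, 5 or 6 or knockout replicate 3 (log2 1.91, edgeR adjusted p = 0.0780). Adam12, a membrane-bound disintegrin protease, averaged 50.8 ± 5.61 CPM in libraries labelled knockout and 23.7 ± 5.55 CPM in controls without overlap (log2 1.10, edgeR adjusted p = 0.0283), and lost its call without the filter and without any of 6 single libraries, control replicates 3, 4 and 5 and knockout replicates 1, 2 and 5 (edgeR adjusted p at most 0.0826). P4ha2, a collagen prolyl hydroxylase subunit, averaged 18.1 ± 2.29 CPM against 25.7 ± 2.65 CPM (log2 -0.50, edgeR adjusted p = 0.0128), and lost its call with only the groups compared and without control replicate 3. Comp and Adam12 were also called in the average over the sexes, at log2 differences of 2.27 and 0.76, calls that Comp lost by limma-voom and Adam12 in 7 of 30 alternatives. No list had a called gene in male adipocytes or in SVC. Collagens had a positive value in 13 of 15 genes in female adipocytes (median 0.31) and in 0 of 15 in SVC (median -0.26), with none called. The pericyte and smooth muscle markers were positive in female adipocytes as given above.

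Between control females and males, where 23.7% of all genes were called higher and 20.1% lower, collagens were called higher in females for 6 of 15 genes and lower for 1, and collagen-processing genes for 6 and 3 of 15. Col14a1, Col6a1 and Col3a1 were higher in females by 2.06, 1.5 and 1.09 on the log2 scale, and Lox, which cross-links collagen, by 1.19, whereas Bmp1, a procollagen C-proteinase, was lower, at -1.04. Proteoglycans and glycoproteins were called higher for 5 and lower for 3 of 17, led by Lum at 2.33. Plasminogen activation genes were called higher for 2 and lower for 1 of 9, and activators and other inhibitors for 2 each of 16, with Adam8 at -2.50.

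Between control adipocytes and SVC, 44.2% of all genes were called lower and 32.8% higher in adipocytes. Called lower were 10 of 15 collagens, 13 of 18 proteoglycans and glycoproteins, 6 of 10 plasminogen activation genes, 11 of 16 activators and other inhibitors and 11 of 15 collagen-processing genes. Vcan, the versican that Adamts1 and Adamts9 cut, had a log2 difference of -6.41, and Plat and Plau, the plasminogen activators, of -5.29 and -3.83. Reck, a membrane-anchored Mmp inhibitor, was at -4.04. Called higher in adipocytes were 3, 1, 3, 3 and 2 genes of the same lists, in that order.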

How the data were processed

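The authors deposited a table of raw counts per gene for 30 libraries, and a table of regularised log2 values (rlog) made from them with DESeq2, per the labels. Reads were checked with FastQC 0.12.1 and aligned with STAR 2.7.11a to mm39, per the submitters' processing notes. Which program and annotation gave the counts is not given in the sources used here. Every column belonged to a named library, so 0 columns were left unused.

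From the deposited counts, levels were computed as CPM with 1 TMM scaling over all 30 libraries, and per kilobase with union exon lengths of a GRCm38 annotation. A library of about this depth gives a floor of 3 counts, and such floors cover counting error only. Contrasts used edgeR 4.0.16 in R 4.3.3 (quasi-likelihood F-test, filterByExpr with a minimum count of 10, robust), with Benjamini-Hochberg adjustment over all genes tested and a threshold of 0.05. Fits took the 23 adipocyte libraries for sex and genotype contrasts, the 7 SVC libraries, and the 18 male libraries for contrasts of fractions. The same control libraries enter the contrast of sexes and each genotype contrast. Standard errors were taken from the log2 fold change and F, and approximate 95% intervals are 1.96 standard errors either way. Scripts were tested on simulated data. Ratios of summed counts have exact (Clopper-Pearson) 95% intervals conditional on the total. These ratios, the shares of genes whose groups do not overlap and the alternatives for called matrix genes were computed after the values were seen. The rlog values were used only to compare direction.

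Library numbers in the deposited column names were checked as pairs. For adipocytes and SVC labelled knockout the correlations of paired deviations were 0.1997, 0.2543 and 0.1942, all above 0.1, so the number was used as a replicate block beside that contrast. The other numberings did not pass this check. For female adipocytes, knockout label and control, the correlations for numbers 1 to 6 were 0.2646, 0.1119, -0.0600, 0.4820, 0.5375 and 0.3681. Number 3 failed the check, while numbers 1, 4, 5 and 6 stood above every value of the numbering that passed. The female genotype contrasts were fitted without a block, so their main values do not take up any structure shared by those libraries.

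Alternatives were RLE, upper-quartile and library-total scaling (the last added after seeing the data), no filter on low counts, DESeq2 1.42.0, limma-voom (limma 3.58.1), only the libraries of the groups compared (for SVC, all 18 male libraries), the replicate block, and leaving out each library.

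The members, role groups, matrix lists and marker lists were chosen with earlier results of these data known. Named in every contrast were Timp1 to Timp4, Mmp2, Mmp9 and Mmp14. Also named were the 3 members of smallest p each way in each knockout contrast, up to 3 called members each way with the largest difference and a mean of at least 1 CPM in each role group between sexes and fractions, and the member of highest level per kilobase. From each matrix list, called genes of smallest p were named. Other members were added where their values bear on a sentence. Promoter sequences were matched by symbol, and 34 of 49 members had an entry.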

Additional observations from a re-analysis of the deposited data

Results flagged for a closer look

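Each named member was checked in each group of 4 to 6 libraries for 1 library whose gap to the nearest other exceeded Dixon's 95% critical value, and 16 of 185 groups met this. Chance alone gives about 1 in 20. No cause was tested.

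In male control adipocytes, replicate 1 stood high in 5 genes. It held 214 CPM of Adamts4 (next highest 101 CPM), 3.03 CPM of Adamtsl1 (1.32 CPM), 4.06 CPM of Mmp23 (2.03 CPM), 1.03 CPM of Adamts8 (0.377 CPM) and 0.831 CPM of Adamts14 (0.566 CPM). Replicate 5 of the same group held the lowest Adamts10, at 10.5 CPM (next lowest 16.6 CPM). In male adipocytes labelled knockout, replicate 5 was highest for Adamts15, at 6.18 CPM (2.66 CPM), and for Mmp19, at 327 CPM (232 CPM), and replicate 1 was highest for Adamts5, at 259 CPM (186 CPM).

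In female control adipocytes, replicate 1 was highest for Adamts15, at 3.72 CPM (1.91 CPM), and for Mmp13, at 1.69 CPM (0.727 CPM). Replicate 6 was highest for Adamts6, at 2.84 CPM (1.22 CPM), and for Adamts3, at 0.413 CPM (0.242 CPM), and replicate 2 for Adamtsl5, at 12.9 CPM (5.92 CPM). In SVC labelled knockout, replicate 4 was highest for Adamts17, at 3.88 CPM (0.480 CPM), and lowest for Adamts5, at 118 CPM (next lowest 171 CPM).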

How the results depend on the processing

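Over 131 pairs of a named member and a contrast, 2585 alternative values were computed. Of these, 2495 kept their direction and side of the threshold, 23 lost a call, 7 gained one and 60 changed sign, in 18 pairs. No called member changed sign under any scaling, and called members had the sign of the authors' deposited log2 values in 15 of 15 for the sexes, 35 of 35 for control fractions and 33 of 33 for fractions labelled knockout. The cause of the changes below was not tested.

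Members called in female adipocytes numbered 1 by DESeq2 (Mmp9) and 0 to 1 over left-out libraries, and in the average over the sexes 1 by DESeq2 (Mmp9), 1 with the replicate block (Adamts9, log2 0.40, adjusted p = 0.0420) and 0 to 1 over left-out libraries. Without female knockout replicate 3, Adamts9 reached 0.52 (edgeR adjusted p = 0.0200) in the average, and without replicate 6, Mmp9 reached -0.94 (edgeR adjusted p = 0.0407). By DESeq2 Mmp9 was -0.81 (adjusted p = 0.0304). Over left-out libraries 13 to 16 members were called between sexes, 34 to 36 between control fractions and 33 to 34 between fractions labelled knockout.

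Genes called over the whole table were 10 in male adipocytes, with 4 to 332 over left-out libraries (332 without knockout replicate 5), 159 by DESeq2, 6 with the groups compared only and 4 with the block. In females there were 67, with 32 to 89 over left-out libraries, 206 by DESeq2 and 26 with the groups compared only. The average gave 108, with 60 to 246 over left-out libraries, 350 by DESeq2 and 180 with the block, and the difference of sexes gave 2, with 0 to 22, 23 by DESeq2, and 1 without the filter and with the block. SVC gave 0, with 0 to 1, 76 by DESeq2, 3 with all 18 male libraries and 1 with the block. The difference of fractions gave 0, with 0 to 1 and 22 by DESeq2. Fractions labelled knockout gave 13199, and 8370 with the block.

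Signs turned only in log2 values that were not called. Over left-out libraries, Mmp14 ran from -0.19 to 0.017 in male and -0.17 to 0.064 in female adipocytes, -0.33 to 0.0018 in SVC, -0.061 to 0.18 for the difference of sexes (-0.035 with library-total scaling) and -0.11 to 0.20 for that of fractions. Mmp2 ran from -0.11 to 0.11 in females, and Mmp9 from -0.091 to 0.52 in SVC. Timp1 ran from -0.13 to 0.24 in females (-0.0052 with upper-quartile scaling, -0.051 with library-total scaling, -0.22 by limma-voom, -0.12 with the block), -0.16 to 0.024 in the average, -0.55 to 0.35 in SVC and -0.60 to 0.38 for the difference of fractions (-0.10 by limma-voom). For the difference of sexes it was -0.019 by limma-voom and -0.028 with the block. Timp2 ran from -0.11 to 0.15 for the difference of fractions (-0.0091 without the filter). Timp3 ran from -0.0092 to 0.25 for the difference of sexes, -0.13 to 0.036 between sexes, -0.36 to 0.34 in SVC (0.0062 with all 18 male libraries, 0.22 with the block) and -0.25 to 0.45 for the difference of fractions. Adamts17 ran from -0.37 to 2.25 in SVC (-0.24 with the block).

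The smallest groups hold 3 and 4 SVC libraries, which limits what their contrast can show. Library-total scaling moved the median of all genes between fractions to -0.85 in controls and -0.75 in libraries labelled knockout. The numbers of other groups did not pass the check of pairs, so the block was only an alternative there. For females, where all numbers but 3 gave a correlation above 0.1, that check does not show that the libraries are unpaired.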
